A study of Mus musculus with 2 samples.

Results

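The 10 genes described here, Acan, Vcan, Hapln1, Cspg4, Matn1, Matn3, Matn4, Comp, Epyc and Fn1, encode proteoglycans and adhesive proteins of the cartilage matrix. They were chosen by name from 20807 protein-coding genes on the autosomes, and the open chromatin regions inside them or within 50 kb of them in the mm10 genome were taken from both peak lists. Open chromatin was profiled by ATAC-seq, in which a transposase cuts accessible DNA and tags it for sequencing, in the proximal and the distal cartilaginous ends of the femur of E15.5 embryos of the FVB strain (labelled FVBNJ). No embryo was treated or carried a named mutant allele, and the only difference stated between the 2 groups is the end of the bone that was dissected. Right and left femurs of a litter, on average 8 animals, were pooled by end, the cartilage was digested with collagenase, and 50000 cells went into each reaction. The cells are labelled as chondrocytes, but the study describes the dissected ends as growth plate with its overlying perichondrium and further cartilage. Each end is represented by 1 list of peak positions that were reproducible between 2 biological replicates, without peak heights, so no value below carries a replicate error, no test was run, and a peak missing from a list may mean closed chromatin or a signal that did not pass in both replicates. In pooled tissue, fewer cells that hold a region open and less openness per cell cannot be told apart. The number of reads behind the lists was not analysed here.

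Cartilage resists compression because aggrecan, the protein of Acan, carries many chondroitin sulphate chains that hold water. Aggrecan binds hyaluronan, and the link protein encoded by Hapln1 locks that bond, so that very large aggregates fill the collagen network. Versican (Vcan) is the related hyaluronan-binding proteoglycan of looser, earlier mesenchyme, and Cspg4 encodes NG2, a transmembrane chondroitin sulphate proteoglycan. Matrilins (Matn1, Matn3 and Matn4) and cartilage oligomeric matrix protein (Comp) are multimeric adaptors that connect collagen fibrils and proteoglycans. Epiphycan (Epyc) is a small leucine-rich proteoglycan of growth cartilage, and fibronectin (Fn1) is a general adhesive glycoprotein that is laid down before cartilage condenses. The transcription factor SOX9 and its partners SOX5 and SOX6 are known to drive many of these genes in chondrocytes.

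Proximal and distal peaks that overlapped by at least 1 bp were merged into regions. The 10 genes had 46 distinct regions of 32388 in all, made of 37 proximal and 40 distal peaks. Of the 46 regions, 29 were shared, that is, they held a peak of each end, 7 were called in the proximal femur only and 10 in the distal femur only. The windows of Hapln1 and Vcan, which are neighbours on chromosome 13, overlap, and 2 regions between them are counted for both genes but once in the total. The farthest region that was counted lay 44280 bp from Matn4, and the nearest that was left out was a shared region 50766 bp from Cspg4.

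**Figure D1:**
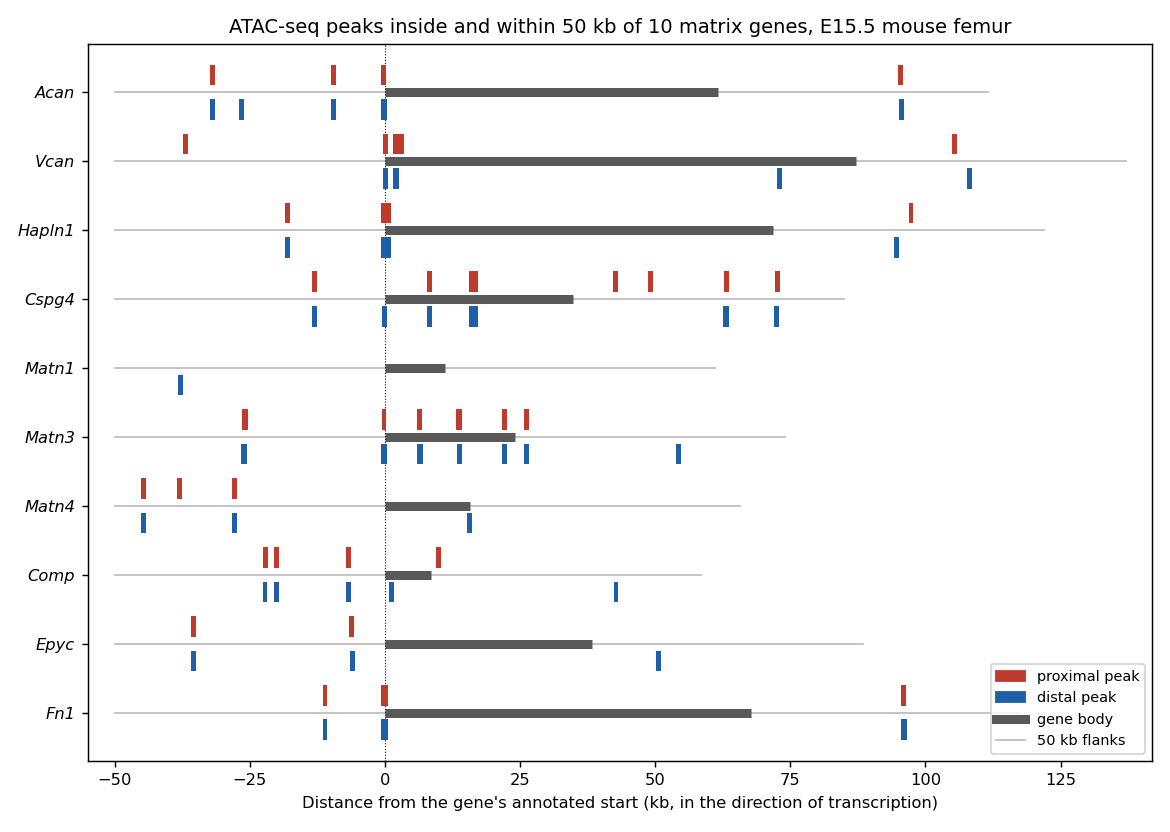
Each row is a gene, drawn from 50 kb before to 50 kb after it, with the distance in kb from its annotated start in the direction of transcription on the horizontal axis, proximal peaks in red above the line and distal peaks in blue below it. Peaks narrower than a minimum drawing width are widened so that they can be seen. Matn1 has a distal peak alone, whereas the peaks of Cspg4 and Matn3 extend through the gene body and both flanks.

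The sequences below are the central 200 bp of the widest shared region inside the gene and clear of start sites and exons or, where there was none, of the widest such region in the flank. They are shown for the 6 genes where that region lay in the gene or had the gene's start as its nearest protein-coding start. They are examples of elements away from promoters that both femur ends held in common. Of the 15 shared regions away from start sites, the rest are not printed. The strand is the plus strand of mm10, read from the C57BL/6J reference and not from the FVB embryos, and capitals mark the core SOX sequence ACAANG and the AP-1 sequence TGANTCA, searched on both strands. The Acan sequence is chr7:79043892-79044091, the Hapln1 sequence chr13:89521592-89521791, the Matn3 sequence chr12:8954300-8954499, the Cspg4 sequence chr9:56881304-56881503, the Epyc sequence chr10:97637892-97638091 and the Fn1 sequence chr1:71664206-71664405.
Acan upstream: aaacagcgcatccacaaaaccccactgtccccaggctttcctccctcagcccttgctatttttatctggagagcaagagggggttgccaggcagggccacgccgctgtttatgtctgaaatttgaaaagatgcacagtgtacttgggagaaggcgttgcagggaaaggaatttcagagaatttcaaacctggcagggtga
Hapln1 upstream: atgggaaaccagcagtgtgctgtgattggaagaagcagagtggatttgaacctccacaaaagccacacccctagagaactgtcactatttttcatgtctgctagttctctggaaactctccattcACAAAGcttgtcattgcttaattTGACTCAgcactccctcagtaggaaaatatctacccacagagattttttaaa
Matn3 intron: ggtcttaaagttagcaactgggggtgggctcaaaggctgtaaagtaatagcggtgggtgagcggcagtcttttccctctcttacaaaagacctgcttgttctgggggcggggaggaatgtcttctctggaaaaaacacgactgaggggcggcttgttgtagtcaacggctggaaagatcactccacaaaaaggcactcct
Cspg4 intron: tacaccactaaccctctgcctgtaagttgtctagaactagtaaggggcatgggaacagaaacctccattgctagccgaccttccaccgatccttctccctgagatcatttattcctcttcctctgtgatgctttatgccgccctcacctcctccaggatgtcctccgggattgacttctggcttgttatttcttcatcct
Epyc upstream: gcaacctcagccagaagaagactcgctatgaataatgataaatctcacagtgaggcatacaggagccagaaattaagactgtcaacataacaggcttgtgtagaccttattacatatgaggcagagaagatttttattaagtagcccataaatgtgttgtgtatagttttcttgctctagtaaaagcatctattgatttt
Fn1 upstream: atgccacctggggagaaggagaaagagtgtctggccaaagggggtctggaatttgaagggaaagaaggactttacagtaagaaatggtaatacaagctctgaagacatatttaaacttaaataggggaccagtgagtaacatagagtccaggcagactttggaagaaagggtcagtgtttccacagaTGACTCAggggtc

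Acan (chr7:79053483-79115099, plus strand) had 5 regions, of which 4 were shared and 1 was distal only. The region at its start was 919 bp wide in the proximal and 978 bp wide in the distal femur. Another 3 regions lay upstream, inside the body of Gm26633, a gene annotated as antisense that starts in the same region as Acan, and none lay in an Acan intron. The nearest of the 3, whose centre is printed above, lay 9044 bp before the start of Acan and was 713 bp wide in the proximal and 896 bp in the distal femur. A second shared region lay 31560 bp upstream, with widths of 609 and 762 bp. Between them, 26174 bp upstream, a region of 659 bp was called in the distal femur only, and the nearest proximal peak was 4735 bp away from it. Downstream of Acan, 33431 bp from its end, a shared region covered the start of Mfge8, which encodes a secreted milk-fat globule protein. It was the only 1 of the 4 shared regions that was wider in the proximal femur (833 against 704 bp).

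Vcan (chr13:89655312-89742509, minus strand) had 7 regions and the most regions at its own start sites, 3, but only 2 of the 7 were shared. The region over the start of the gene was 736 bp wide in the proximal and 699 bp wide in the distal femur. A second shared region, 1410 bp inside the gene, lay over the start of another Vcan transcript and within 1 kb of the start of the antisense gene Gm4117, and was 1284 bp wide in the proximal and 1103 bp in the distal femur. Beside it, 244 bp from the nearest distal peak, stood a proximal peak of 458 bp. This is the only single-end region of the 10 genes that had a peak of the other end within 1 kb. Deeper in the gene, a distal peak of 643 bp lay in an intron, 31746 bp from the nearest proximal peak. Upstream, 36680 bp from the gene and inside Xrcc4, a DNA repair gene, a peak of 606 bp was called in the proximal femur only.

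Hapln1 (chr13:89539796-89611652, plus strand) had 4 regions. The region at its start was the widest of all 46, at 1853 bp, and 98.5% of all start-site regions were narrower. It was made of 2 peaks in each list, with summed widths of 1758 bp in the proximal and 1807 bp in the distal femur. The shared region 17754 bp upstream, printed above, held no CpG dinucleotide and was 702 bp wide in the proximal and 622 bp in the distal femur. No region lay in the gene body apart from the one at the start. Downstream, in the sequence between Hapln1 and Vcan, a distal-only peak of 352 bp and a proximal-only peak of 696 bp lay 2230 bp apart, so each end had a peak there but not at the same place.

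Cspg4 (chr9:56865033-56899870, plus strand) had 8 regions, the most of the 10 genes. At its start a peak of 299 bp was called in the distal femur only, narrower than all but 0.348% of start-site regions, and the nearest proximal peak was 7804 bp away. That region also lies within 1 kb of a transcript start of the neighbour Odf3l1. The introns of Cspg4 held 2 shared regions. The first, 7923 bp from the start, was 581 bp wide in the proximal and 609 bp in the distal femur. The second, 15535 bp from the start and printed above in part, was 1576 bp wide in the proximal and 1673 bp in the distal femur, and 99.8% of all regions away from start sites were narrower. Downstream of the gene, proximal-only peaks of 343 and 602 bp lay 7664 and 13929 bp from its end. The proximal-only peaks of Cspg4 therefore lay behind the gene and its distal-only peak at the start. The other 3 regions, all shared, covered starts of Odf3l1, Snx33 and Imp3.

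Among the 3 matrilins of the set, Matn3 had the most regions and Matn1 the fewest. Matn3 (chr12:8947929-8972028, plus strand) had 7 regions, 4 of them inside the gene and all 4 shared. The region at the start was 918 bp wide in the proximal and 1106 bp in the distal femur. The intronic region 5942 bp into the gene was 937 and 1042 bp wide. The region 13113 bp into the gene, which touches an exon, was 1119 bp wide in the proximal and 848 bp in the distal femur. Both were wide for regions away from start sites, of which 95.3% and 96.7% were narrower. A further intronic region near the end of the gene was 413 bp wide in the proximal and 354 bp in the distal femur. Of the remaining regions, 2 shared ones covered the starts of Laptm4a and Wdr35, and the distal-only peak of 312 bp lay inside Wdr35.

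Matn1 (chr4:130944385-130955475, plus strand), a classical marker of cartilage, had no region at its start or inside the gene. Its window held 0 proximal peaks and 1 distal peak, of 635 bp, which lay 37552 bp upstream and was nearer to the start of Laptm5, at 6292 bp, than to that of Matn1. Matn4 (chr2:164389393-164405160, minus strand) also had no region at its start. Its 3′ end was overlapped by a distal-only peak of 1009 bp, the widest single-end peak of the set, which covers the start of Slpi, a secreted protease inhibitor. Upstream of Matn4, a shared region inside Sdc4, which encodes the cell surface proteoglycan syndecan 4, was 716 bp wide in the proximal and 775 bp in the distal femur. A peak of 476 bp at a Sdc4 start was called in the proximal femur only, and a shared intergenic region at 44280 bp was 503 and 717 bp wide. All 4 regions of Matn4 therefore lay at or nearer to the starts of other genes.

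Comp (chr8:70373558-70382066, plus strand) is the shortest of the genes and had 6 regions. Its own start was represented by a distal-only peak of 496 bp, whose edge lay 884 bp inside the gene and 101 bp from the start of a Comp transcript annotated as processed, without a coding sequence, so the main start itself was not covered in either list. The shared intergenic region 6527 bp upstream was 358 bp wide in the proximal and 480 bp in the distal femur. Downstream, inside Crtc1, a proximal-only peak of 284 bp and a distal-only peak of 445 bp lay 1290 and 34018 bp from the gene. The 2 other shared regions belonged to Upf1, a factor of RNA surveillance, 1 of them at its start.

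Epyc (chr10:97644068-97682454, plus strand) had 3 regions and, like Matn1, none inside the gene or at its start. The region 5685 bp upstream, printed above, was 684 bp wide in the proximal and 783 bp in the distal femur and had a GC content of 34.5%. The second shared region, 800 bp wide in the proximal and 608 bp in the distal femur, lay inside Kera, the gene of a related leucine-rich proteoglycan. A distal-only peak of 516 bp lay 11975 bp behind the gene, inside Ccer1 and Gm10754 and 1370 bp from the start of Ccer1. It was 56138 bp from the nearest proximal peak, the largest such distance in the set.

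Fn1 (chr1:71585520-71653200, minus strand) had 3 regions, all shared, and was the only 1 of the 10 genes without a single-end region. The region at its start was 1372 bp wide in the proximal and 1322 bp in the distal femur, and it also covers starts of the antisense gene Apol7d. The intergenic region 10789 bp upstream, printed above, was 635 bp wide in the proximal and 566 bp in the distal femur and held no CpG. The third region covered the start of Atic, a gene of purine synthesis, with widths of 968 and 1074 bp. Beyond the start, the 67681 bp of Fn1 held no region.

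**Figure D2:**
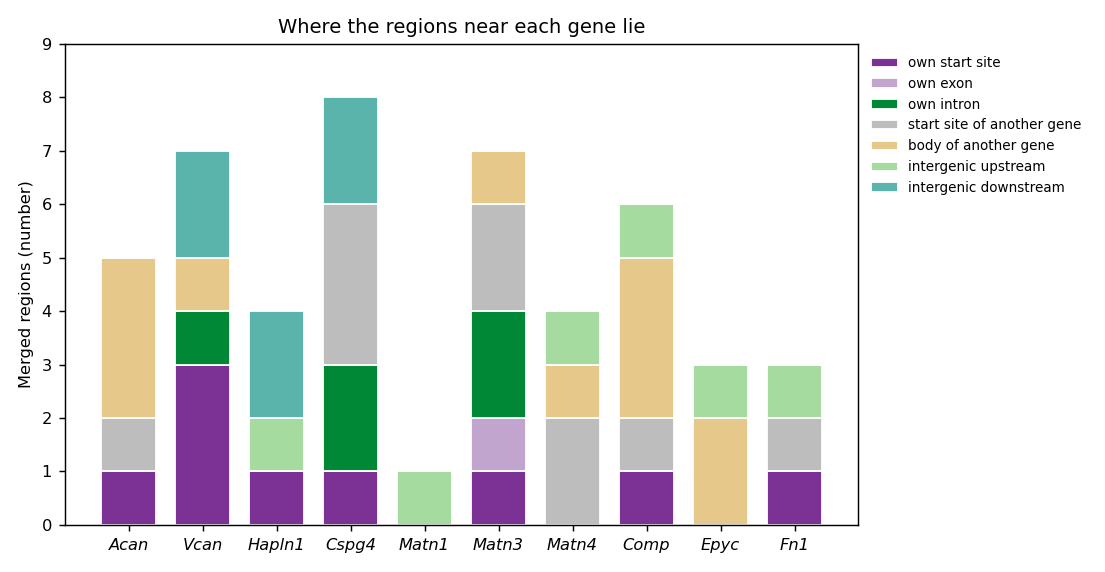
Bars give the number of merged regions of each gene (vertical axis) by where they lie, for the 10 genes along the horizontal axis. Own introns contribute at Matn3, Cspg4 and Vcan, and Matn1, Matn4 and Epyc have no region at an own start site.

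Over the 10 genes, 7 had a region whose nearest edge was within 1 kb of an own transcript start, where 59.1% of all protein-coding genes did. In 5 of them (Acan, Vcan, Hapln1, Matn3 and Fn1) such a region was shared, against 55.0% of all protein-coding genes, and in Cspg4 and Comp it was distal only. Matn3, Cspg4 and Vcan had a region in an own intron away from start sites, 3 of 10 genes where the figure for all protein-coding genes was 16.0%. Gene length was not taken into account in this share, which was 25.7% for the 35 further matrix genes described below. By place, 9 distinct regions lay at own start sites, 10 at starts of other genes, 1 touched an own exon, 5 lay in own introns, 11 in bodies of other genes, 6 in intergenic sequence upstream and 4 in intergenic sequence downstream. Of the 4 downstream regions 3 were proximal only and 1 distal only, while 5 of the 6 upstream regions were shared. The 4 downstream regions lie only behind Cspg4 and between Hapln1 and Vcan. Of all regions away from start sites 38.0% were single-end, and the shares by upstream and downstream place were not computed. For 15 of the 27 regions away from start sites the nearest protein-coding start was that of 1 of the 10 genes. The other 12 lay nearer to the start of a gene outside the set, although 2 of them lie inside Matn3.

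The genes had between 1 and 8 regions, with a median of 4.5, where the median of all protein-coding genes was 3. Counting only regions away from any start site, the median was 3 for the 10 genes and 1 for all protein-coding genes. Matn1 was at the low end, with 13.6% of protein-coding genes having fewer regions, and Cspg4 at the high end, with 94.1%. For Matn3 and Vcan, with 7 regions each, 90.0% of genes had fewer. Per 100 kb of window, which takes gene length into account, the median was 3.27 regions for the 10 genes and 2.07 for all. The genes were picked by name as matrix genes of a studied tissue, with earlier results of these data known. These counts therefore describe them and were not tested.

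**Figure D3:**
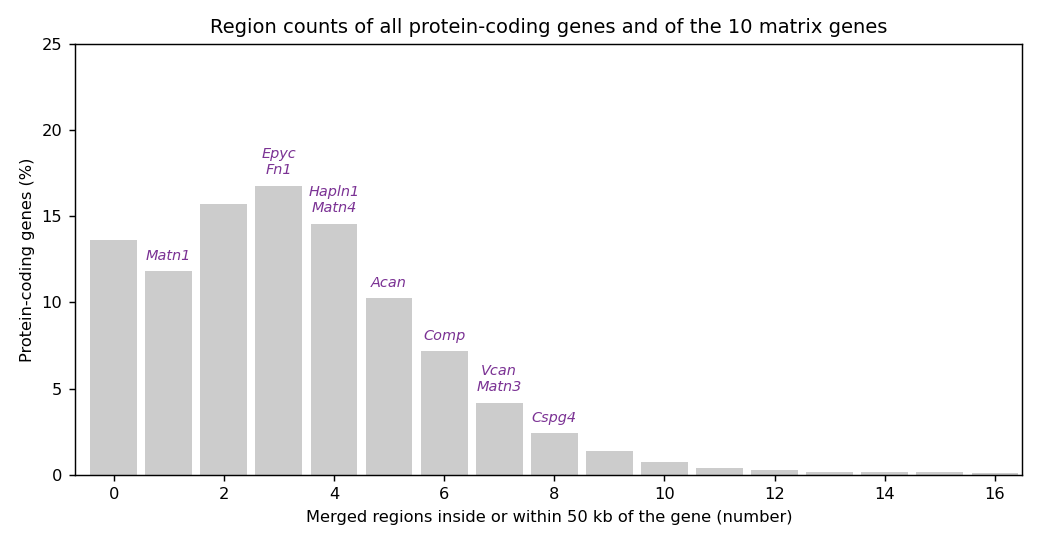
Grey bars give the percentage of all protein-coding genes (vertical axis) with each number of regions inside or within 50 kb of the gene (horizontal axis, which ends at 16), and names mark the 10 genes. The genes range from 1 region for Matn1 to 8 for Cspg4.

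The regions of these genes were single-end in 17 of 46 cases, 37.0% (95% Wilson interval 24.5% to 51.4%, for counting error only), where 27.0% of all merged regions were. Proximal-only regions made up 15.2% (interval 7.57% to 28.2%) against 14.1% of all, and distal-only regions 21.7% (12.3% to 35.6%) against 12.9% of all. All 3 intervals include the value for all regions. At start sites of any gene, 5 of 19 regions were single-end, 26.3% (11.8% to 48.8%), beside 12.2% of all such regions, and away from start sites 12 of 27 were, 44.4% (27.6% to 62.7%), beside 38.0%. Both of these intervals also include the background value. Neighbouring regions of a gene are not independent, which the intervals do not take into account.

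Single-end regions had a median width of 496 bp, against 800 bp for shared regions, and ranged from 284 bp at Comp to 1009 bp at Matn4. A shared region spans peaks of both lists, which by itself makes it wider. For single peaks, the proximal medians were 476 bp in single-end and 726 bp in shared regions. The distal medians were 506 and 767 bp. The same medians were not computed for the whole lists. Measured to the closest peak in the opposite list, single-end regions had a median distance of 13266 bp. In the 29 shared regions the distal peaks were wider in 17 and the proximal peaks in 12, where the distal peaks were wider in 42.4% of all shared regions. No interval was computed for this count, its departure from all regions was not tested, and 8 of the 29 lie at starts of other genes. The ratio of distal to proximal width ran from 0.758 to 1.58 with a median of 1.04, and over all shared regions the median was 0.981. The most distal-leaning ratio was at the start of Snx33 near Cspg4 (664 against 1051 bp). Width is the only graded measure in these lists, and the part of sequencing depth in it was not tested. The median width of the genes' peaks was 696 bp in the proximal and 710 bp in the distal femur, with 711 and 691 bp for the whole lists.

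**Figure D4:**
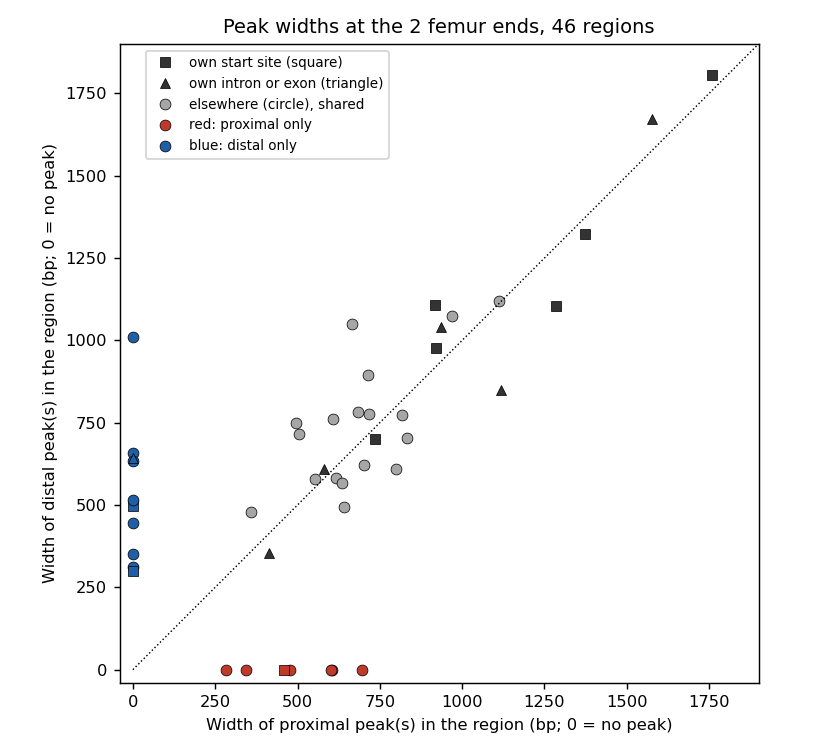
Each point is 1 of the 46 regions, with the summed width of its proximal peaks in bp on the horizontal axis and of its distal peaks on the vertical axis. Points at 0 have no peak in that list, and the dotted line marks equal widths. The shared regions lie along the line up to the Hapln1 start at 1758 and 1807 bp, and the red and blue points on the axes do not exceed 1009 bp.

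Whether a start site was open went with the CpG content of the promoter across all genes. The RefSeq promoter window, 250 bp before to 50 bp after the start on GRCm38.p6, was matched by symbol for 15646 protein-coding genes and for 8 of the 10, not for Comp and Fn1. Among all matched genes, an own start region was present in 14.7% of those with 0 to 5 CpG dinucleotides, 48.9% with 6 to 10, 83.9% with 11 to 20 and 90.4% with 21 to 65. Acan had 31 CpG in its window, Cspg4 17, Matn3 15 and Vcan 12, and each had a region. Matn4 had 9, Matn1 6 and Epyc 2, and each had none. Hapln1, with 3 CpG in its window and the widest of the 46 regions, stood apart from this order. That region, made of 2 peaks in each list, held 29.1 CpG per kb over its whole width. The median of all start-site regions was 63.7 per kb. The RefSeq start lies 840 bp from the start of the GENCODE gene at Hapln1, 257 bp at Acan, 71 bp at Cspg4 and 3 bp at Vcan, and at the same base in the other 4 genes. No TATAAA was found on the coding strand in the 50 bp before any of the 8 starts, a sequence present there in 3.47% of all matched genes.

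The sequences that follow are the last 120 bases before the RefSeq start, shown 5′ to 3′ on the coding strand with CpG in capitals, for 2 genes with a shared start region and 2 without any. The positions are chr7:79053106-79053225 for Acan, chr12:8947809-8947928 for Matn3, chr4:130944265-130944384 for Matn1 and chr10:97643948-97644067 for Epyc, all on the plus strand.
Acan promoter, start region present: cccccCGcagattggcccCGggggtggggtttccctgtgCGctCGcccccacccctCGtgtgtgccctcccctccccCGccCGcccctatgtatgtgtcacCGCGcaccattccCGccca
Matn3 promoter, start region present: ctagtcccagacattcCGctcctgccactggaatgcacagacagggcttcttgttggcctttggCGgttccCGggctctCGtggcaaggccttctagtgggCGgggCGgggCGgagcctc
Matn1 promoter, no start region: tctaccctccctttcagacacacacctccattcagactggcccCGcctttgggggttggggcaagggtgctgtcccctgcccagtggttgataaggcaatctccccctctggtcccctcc
Epyc promoter, no start region: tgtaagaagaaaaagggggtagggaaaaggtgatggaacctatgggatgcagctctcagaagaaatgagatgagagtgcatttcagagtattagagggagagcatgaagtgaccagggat
These stretches hold 10 CpG at Acan, 7 at Matn3, 1 at Matn1 and 0 at Epyc. Of the 4 matched genes that are not printed, the same stretch holds 11 CpG at Cspg4 and 5 at Vcan, which have a start region, but 1 at Hapln1, which has one, and 3 at Matn4, which has none, so the order does not hold for every gene.

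**Figure D5:**
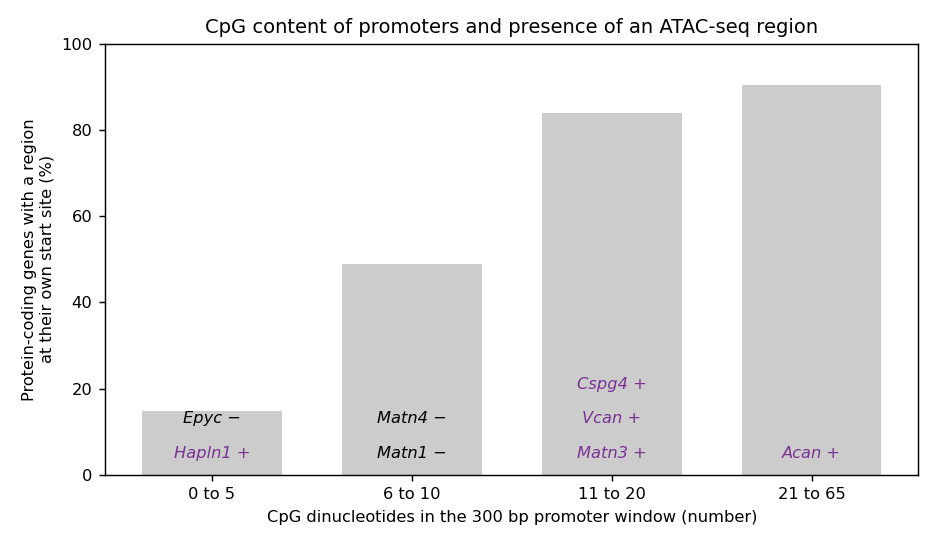
Bars give the percentage of protein-coding genes with a region at an own start site (vertical axis) for 4 classes of CpG number in the 300 bp promoter window (horizontal axis). Names mark the 8 matched genes, with a plus where a region was present and a minus where there was none, and the bars rise from 14.7% to 90.4%.

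Away from start sites, sequence composition was close to that of all such regions. The median GC content was 47.7% in the 27 regions and 47.2% in all, with a range of 34.3% in the distal-only region inside Wdr35 to 57.8% in the Sdc4 region near Matn4. The median share of bases masked as repeats in the reference was 10.2% and 9.13%. The central 200 bp were searched on both strands for 4 patterns, of which ACAANG is the core read by SOX factors. It was present in 10 of 27 regions, 37.0% (95% Wilson interval 21.5% to 55.8%), and in 29.5% of all regions away from start sites. The AP-1 sequence TGANTCA was present in 8, 29.6% (15.9% to 48.5%), and in 36.6% of all. The sequence ACCACA, part of the RUNX site, was present in 3, 11.1% (3.85% to 28.1%), and in 18.1% of all. Each of these intervals includes the value for all regions. The upstream Hapln1 sequence printed above holds both a SOX core and an AP-1 sequence, that of Fn1 an AP-1 sequence, and those of Acan, Matn3, Cspg4 and Epyc neither. Each printed stretch is only the centre of 1 region of its gene. Over their whole lengths, these regions of Acan, Matn3 and Cspg4 held 3, 4 and 3 SOX cores and that of Epyc 0. No AP-1 sequence lay in any of them. Of all regions away from start sites, 67.4% held a SOX core somewhere in the whole region.

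SOX9 can bind as a dimer to a pair of facing sites, here searched as ACAA followed after 5 or 6 bases by TTGT. No central 200 bp of the 46 regions held such a pair. For the 27 away from start sites the Wilson interval ran from 0% to 12.5%, and 0.430% of all such regions held one. Over whole regions, 2 of the 46 did, 4.35%, and 1.51% of all regions did. They are the start region of Hapln1, 392 bp from the start of the gene, and the first intronic region of Matn3, 6892 bp into the gene. Both regions are shared, but the Hapln1 pair lay within a proximal peak and in no distal peak, and the Matn3 pair lay within the distal peak, past the end of the proximal peak. The Matn3 pair is given in capitals with 20 bases on either side, on the plus strand at chr12:8954801-8954853. A match is a description of the letters, and binding was not measured.
Matn3 facing pair: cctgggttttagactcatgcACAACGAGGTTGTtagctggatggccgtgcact

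The labelled cell type was compared with markers through peaks at own start sites. Of 8 chondrocyte genes 7 had one in each list, Col11a2 being absent from the proximal and Sox5 from the distal list. Of 3 hypertrophic, 6 osteoblast, 5 muscle and 5 blood genes, 0 had one in either list. Of 4 endothelial genes, Kdr had one in both lists and Tek in the distal list, and of 5 epithelial genes Epcam had one in both. Over all protein-coding genes 59.1% had a region at an own start site in either list. Regions within 50 kb summed to 55 for the 8 chondrocyte genes, 15 of them at Sox5. The sums were 3 for the 3 hypertrophic, 17 for the 6 osteoblast and 12 for the 5 muscle genes. They were 13 for the 4 endothelial, 14 for the 5 blood and 14 for the 5 epithelial genes. The lists differ in size, so the sums cannot be compared directly. The mean over all protein-coding genes was 3.33 regions per gene. Acan is itself among the chondrocyte markers and is no separate check, and Matn1 and Epyc, both cartilage genes, had no start peak either. A part of other cell types in the single-end regions was not tested.

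Of a list of 36 further proteoglycan and matrix genes, 35 are on autosomes, since Bgn is on chromosome X, from which the lists hold no peak. An own start region was present in 17 of the 35 (48.6%), a shared one in 12 (34.3%) and a region in an own intron in 9 (25.7%). They had a median of 4 regions and 2 away from start sites, and 38 of their 125 distinct regions (30.4%) were single-end. None of the 35 had 0 regions within 50 kb. The highest numbers were 10 for Thbs3, which encodes a thrombospondin related to Comp with 6 of them at starts of other genes, and 7 each for Ncan, Matn2 and Hspg2, the gene of perlecan. Matn2, the remaining matrilin, had 5 regions in its introns and a shared region at its start, where Matn1 and Matn4 had none.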

How the data were processed

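The authors aligned ATAC-seq reads to mm10 with Bowtie2 (version 2.2.8 in the submitters' processing notes), removed duplicates, called peaks with MACS2 (2.1.1 in those notes; the study's methods name another release) and kept peaks with an irreproducible discovery rate under 0.05 between replicates. The deposited files hold chromosome, start and end of each peak, 28257 proximal and 27958 distal, in bp, with no score. Both lists covered chromosomes 1 to 19, 0 peaks passed a chromosome end of GRCm38, and positions are given counted from 1.

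Regions were merged, placed on the GENCODE mouse release 21 annotation and searched for motifs with pysam 0.24.0 and samtools 1.23.1 under Python 3.11.15, with intervals and medians from SciPy 1.17.1 and NumPy 2.4.6 and plots from matplotlib 3.10.9. Regions were placed in the order own start, other start, own exon, own intron, body of another gene, intergenic. Start sites of all annotated transcripts were used, within 1 kb. The code was tested on simulated peaks. All 10 genes were named, and of the list of other matrix genes those with the most regions and those with none. Ncan, Matn2 and Hspg2 tied. Members, lists and markers were chosen with earlier results of these data known, and the promoter CpG classes and the TATAAA search were added after values had been seen.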

Additional observations from a re-analysis of the deposited data

How the results depend on the processing

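No paired analysis was possible because each list combines the replicates of a femur end, and for the same reason no replicate could be left out and no stricter score applied. Of 41 recomputed values, 27 stayed within the limits set (1.5 times for counts and widths, the 95% Wilson interval for shares) and 14 moved. The number of genes with an own start region was 7 under all 4 alternatives for start sites, while the share of all protein-coding genes was 58.2% within 500 bp, 61.8% within 3 kb, 58.4% by the centre and 54.9% from the start of the gene record. The number of regions was 29 with 20 kb flanks and 74 with 100 kb flanks, and distal-only regions numbered 5 with 20 kb. Both follow from the size of the window. Dropping every peak narrower than its list's median (711 bp proximal, 691 bp distal) gave 22 regions, 2 of them intronic. The AP-1 sequence was then in 1 of 9 regions away from start sites (11.1%), and no share was computed for all such regions. Of the 22 regions 1 was proximal-only and 6 were distal-only, but the first and 5 of the 6 were shared regions that had lost a peak. Only 1 single-end region of the full lists, at Matn4, was kept. The single-end share lay between 28.4% (100 kb) and 37.0% (reciprocal overlap of 50%). In whole regions, which are longer, the SOX core share was 74.1% (67.4% of all regions away from start sites) and the RUNX share 40.7% (41.5% of all). The AP-1 share was 40.7% (55.1% of all). No interval was computed for these whole-region shares. The lists hold no depth, which limits what an absent peak can show.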

Other observations

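Epyc lies in a row of small leucine-rich proteoglycan genes on chromosome 10 with Kera, Lum and Dcn, the genes of keratocan, lumican and decorin, which bind collagen fibrils. These genes were chosen after their values were seen. None of these 4 had a region at an own start site. Dcn had 6 regions within 50 kb, of which 3 were shared, 1 proximal only and 2 distal only, and all 6 lay away from start sites. Lum and Kera had 3 regions each, 2 shared and 1 distal only. The windows of neighbouring genes in the row overlap, so a region can be counted for more than 1 of them. A like row on chromosome 13, of Ogn, Omd and Aspn, had 3, 2 and 1 regions, and again 0 at an own start. In these 3 genes 1 region of Ogn was shared and all others were distal only. This row too was chosen after its values were seen. Its windows overlap and distinct regions were not counted, so these numbers give no share. Other listed genes of the family differed. Fmod had 3 shared and 1 distal-only region, Prelp 2 shared, and Chad 3 shared and 1 proximal only, with none at an own start. Chadl had 2 shared and 2 distal-only regions, 1 of them at its own start. Over the whole series 12.9% of regions were distal only and 59.1% of protein-coding genes had a region at an own start site.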
